A study of Mus musculus with 6 samples.

Results

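The Egr transcription factors and their Nab corepressors form a set of 6 genes, Egr1, Egr2, Egr3, Egr4, Nab1 and Nab2. They were chosen by gene symbol, with earlier results of these data known. Each of the 6 has 1 of the 16060 rows of the deposited table, and all 6 entered the test. Hippocampal RNA came from C57BL/6 mice, 3 of the Control group given saline and 3 of the MA group given methamphetamine (MA), with 1 library per mouse. Per the study's methods these were adult males, the MA dose rose weekly from 5 to 10 to 15 mg/kg, and the mice were killed right after open field and elevated plus maze tests on day 22. All 6 mice had thus been through the same tests shortly before the tissue was taken. No gene in the table checks the MA and Control labels independently, so every direction below, of the Egr genes and Arc included, rests on the column names. Whether those names match the treatments is in doubt and was not settled here, and if they were exchanged every sign below would turn. MA and Control libraries therefore means the libraries labelled so throughout. With 1 library per mouse, the p-values measure the spread between these 3 mice of each group.

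Egr proteins are zinc finger transcription factors that bind GC-rich DNA. In neurons their genes are switched on within minutes of synaptic activity, through serum response factor (Srf) with its Ets partners and through CREB, and Egr1 is widely used as a mark of recently active hippocampal cells. Nab1 and Nab2 have no DNA-binding domain of their own. They dock on some of the Egr proteins and recruit the NuRD chromatin complex. Nab2 is itself an Egr target, so that it closes a negative feedback loop, while Nab1 is made more evenly.

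On GRCm38, Egr2 (ENSMUSG00000037868) lies on chromosome 10 from 67535475 to 67542188 on the plus strand and Egr3 (ENSMUSG00000033730) on chromosome 14 from 70077203 to 70082614 on the plus strand. Egr4 (ENSMUSG00000071341) lies on chromosome 6 from 85511121 to 85513589 on the minus strand. Nab1 (ENSMUSG00000002881) lies on chromosome 1 from 52457294 to 52500679 on the minus strand and Nab2 (ENSMUSG00000025402) on chromosome 10 from 127660918 to 127668568 on the minus strand. The Egr genes are short, with 2 to 5 separate exonic stretches, whereas each Nab gene has 9. Nab2 shares 40 bases at its 3′ end with Stat6 on the other strand and 1668 bases at its 5′ end with Nemp1, which the table lists as Tmem194. An antisense gene, Gm16229, also lies across it and is not analysed here. The strand setting of the counting is not given in the sources used here, so reads in those stretches cannot be assigned with certainty.

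RefSeq promoter windows, from 250 bases before to 50 bases after an annotated start, were matched for 4 of the 6 members. They are shown to set Egr2 and Egr4, whose values differed most between the groups among these 4, beside the corepressor genes. Capitals mark every match, on either strand, to 4 motifs. These were the CArG box bound by Srf, ACGTCA from the cAMP response element bound by CREB, GCGNGGGCG bound by Egr proteins, and CCGGAA bound by Ets factors. No matches overlapped each other in the 4 windows printed.
Egr2 promoter, chr10:67537619-67537918, plus strand: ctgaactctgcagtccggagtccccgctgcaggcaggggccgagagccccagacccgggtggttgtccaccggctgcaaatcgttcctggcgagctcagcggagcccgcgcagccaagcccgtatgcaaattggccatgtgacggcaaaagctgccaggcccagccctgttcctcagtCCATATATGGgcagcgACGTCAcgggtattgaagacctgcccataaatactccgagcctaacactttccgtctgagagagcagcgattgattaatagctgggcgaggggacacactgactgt
Egr4 promoter, chr6:85513540-85513839, minus strand: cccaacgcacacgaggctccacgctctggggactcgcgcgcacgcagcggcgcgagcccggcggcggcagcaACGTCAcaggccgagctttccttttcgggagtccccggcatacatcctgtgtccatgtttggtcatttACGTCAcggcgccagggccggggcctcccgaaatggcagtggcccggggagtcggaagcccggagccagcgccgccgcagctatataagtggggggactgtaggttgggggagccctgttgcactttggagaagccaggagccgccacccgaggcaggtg
Nab1 promoter, chr1:52500399-52500698, minus strand: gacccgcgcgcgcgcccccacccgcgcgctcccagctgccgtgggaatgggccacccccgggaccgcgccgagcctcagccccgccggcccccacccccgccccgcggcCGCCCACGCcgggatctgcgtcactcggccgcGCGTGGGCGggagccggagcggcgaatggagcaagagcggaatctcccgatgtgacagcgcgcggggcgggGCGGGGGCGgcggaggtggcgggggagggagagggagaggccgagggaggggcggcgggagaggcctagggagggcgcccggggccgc
Nab2 promoter, chr10:127666654-127666953, minus strand: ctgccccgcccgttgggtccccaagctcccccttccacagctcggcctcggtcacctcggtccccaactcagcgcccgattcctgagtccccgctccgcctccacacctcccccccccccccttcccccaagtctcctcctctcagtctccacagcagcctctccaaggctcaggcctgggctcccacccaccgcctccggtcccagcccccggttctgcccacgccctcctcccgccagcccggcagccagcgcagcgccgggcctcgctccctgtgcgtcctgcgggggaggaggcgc

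The Egr2 window held 1 CArG box, beginning 72 bases before the annotated start, and 1 ACGTCA beginning 56 bases before it. A second Egr2 window, chr10:67537316-67537615, held another CArG box, CCTTTTTTGG, with 3 CCGGAA matches, of which a pair on opposite strands overlapped. RefSeq gave 5 windows for Egr2, and the one nearest the gene's 5′ end, chr10:67535249-67535548, held none of the 4 motifs. The remaining 2 held the same CArG box and ACGTCA as the window printed. In the Egr4 window ACGTCA stood 178 and 110 bases before the start. The Nab1 window held GCGNGGGCG at 141, 109 and 38 bases before the start. Its bases were 81.7% G or C, the highest of the windows matched, and the share of this motif given below was not taken over windows of like composition. The Nab2 window held none of the 4 motifs, but its start, 127666703, lies inside the gene, whose annotated 5′ end is 127668568. The sequence around that 5′ end was not examined. Over the 32851 RefSeq windows of the same length, a CArG box was present in 1.63%, ACGTCA in 7.51%, GCGNGGGCG in 5.55% and CCGGAA in 14.9%. A match is a description of letters, not evidence of binding.

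The deposited values are read as log2 of RPKM plus 1, so that a value of RPKM is per kilobase and can be set beside that of another gene. The 6 libraries had been scaled to a common distribution by the authors, and the depth of each is unknown. The library labelled MA replicate 3 stood apart, with a mean Pearson correlation across genes of 0.978 with the other libraries of its group, where the other 5 libraries had 0.984 to 0.993. Results that rest on it are given with and without it.

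Egr1 (ENSMUSG00000038418, GRCm38 chromosome 18 from 34859823 to 34864984, plus strand), the member most used as an activity mark, was the most abundant of the 6 in every library. Its log2 value was 6.03, 5.75 and 5.75 in Control replicates 1, 2 and 3, and 4.48, 4.25 and 4.43 in MA replicates 1, 2 and 3. The groups did not overlap, and the lowest Control library lay 1.26 above the highest MA library. As RPKM the mean was 56.7 ± 6.65 (SD, n = 3) for Control and 19.9 ± 1.75 (SD, n = 3) for MA, or 35.2% of the Control level. In the libraries labelled MA, Egr1 fell by 1.46 on the log2 scale relative to those labelled Control (standard error 0.11, limma adjusted p = 0.0181), with a 95% interval from -1.72 to -1.20. It had the smallest p of all 13321 tested genes. When any single library was dropped the change stayed between -1.51 and -1.37, and the adjusted p went from 0.0124 without MA replicate 3 to 0.0804 without MA replicate 2. The call was lost without Control replicate 2, Control replicate 3 or MA replicate 2, fits in which no tested gene was called.

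Egr2, also called Krox20 and best known for its part in hindbrain patterning and in Schwann cell myelination, was the least abundant member. Its log2 value was 2.37, 1.77 and 1.56 in Control replicates 1, 2 and 3. It was 0.46, 0.51 and 0.46 in MA replicates 1, 2 and 3. Every MA library was below every Control library, by at least 1.05. The mean RPKM was 2.85 ± 1.18 (SD, n = 3) in Control and 0.394 ± 0.0276 (SD, n = 3) in MA, so the MA level was 13.8% of the Control level, the smallest such share among the 6 members. All 3 MA libraries lay under the minimum of 0.5 RPKM, so Egr2 entered the test through the Control libraries alone. Its log2 difference was -1.42 (standard error 0.20, limma adjusted p = 0.0570), which misses the threshold.

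The offset of 1 compresses differences at such low levels. With a pseudocount of 0.1 in its place the Egr2 difference was -2.51 (limma adjusted p = 0.0309), and with 0.01 it was -2.75 (limma adjusted p = 0.0293). Egr2 also passed with sample quality weights (limma adjusted p = 0.0136) and without MA replicate 3 (limma adjusted p = 0.0436), and the range over all its alternatives was 0.0136 to 0.192. Its direction was the same in each of them, and the minimum mean of 5 left it out.

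Egr4, a relative found mostly in the nervous system, was 5.12, 4.56 and 4.36 in Control replicates 1, 2 and 3 on the log2 scale. It was 3.14, 3.27 and 3.56 in MA replicates 1, 2 and 3. The groups were separated by 0.80. In RPKM the means were 25.3 ± 7.49 (SD, n = 3) and 9.09 ± 1.52 (SD, n = 3), an MA level of 35.9% of Control. The log2 difference of -1.36 (standard error 0.20, limma adjusted p = 0.0628) did not pass the threshold. It passed with sample quality weights (limma adjusted p = 0.00970) and without MA replicate 3 (limma adjusted p = 0.0328), within a range over all alternatives of 0.00970 to 0.240.

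Egr3, which takes part in synaptic plasticity and in muscle spindle development, showed another pattern. Its log2 value was 4.24, 3.69 and 4.12 in Control replicates 1, 2 and 3, and 3.89, 3.83 and 2.78 in MA replicates 1, 2 and 3. MA replicates 1 and 2 lay within the range of the Control libraries, and MA replicate 3 lay far below all others. The log2 difference was -0.51 (standard error 0.30, limma adjusted p = 0.617), with an interval from -1.22 to 0.19. Without MA replicate 3 it was -0.15 (limma adjusted p = 0.603, in a range of 0.602 to 0.931 over its alternatives). The interval reaches from a fall nearly as large as that of Egr4 to a small rise, so these 6 libraries measured the change of Egr3 only loosely.

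**Figure D1:**
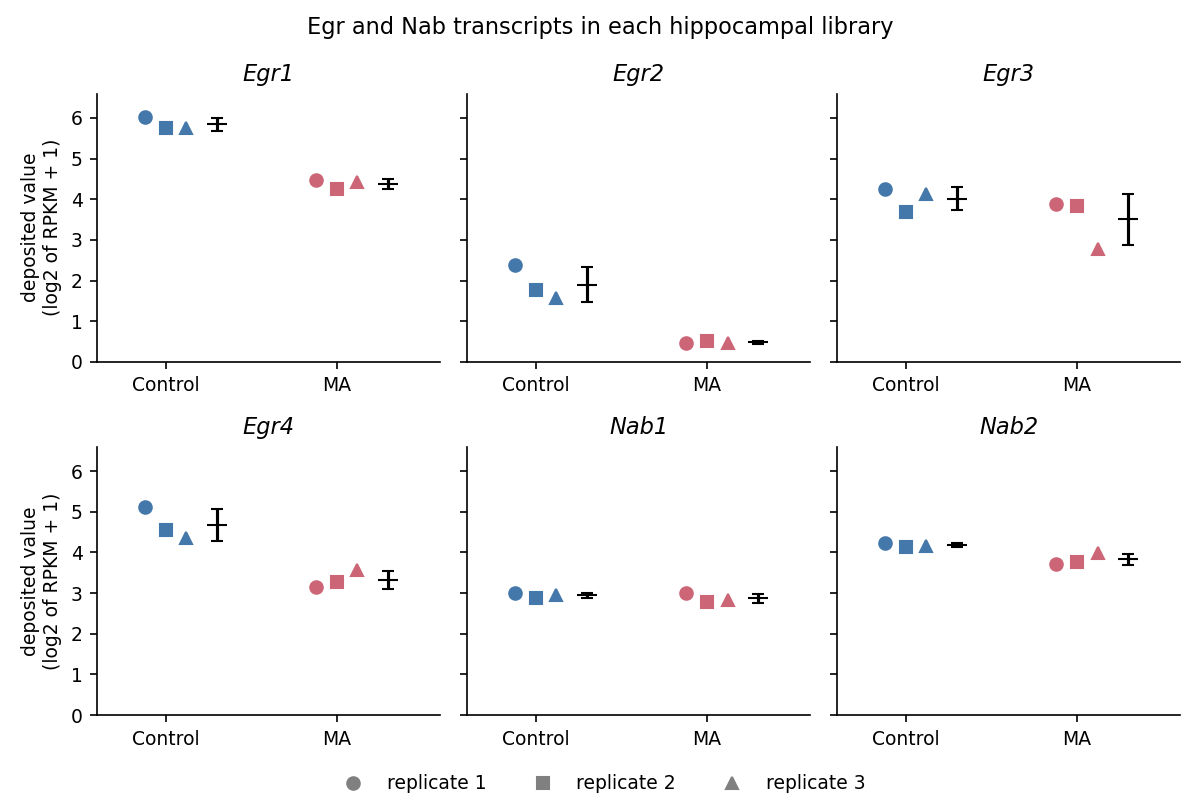
Deposited value (log2 of RPKM + 1, vertical axis) of each of the 6 genes in the 3 Control and 3 MA libraries, with a marker shape for each replicate number and a black bar for mean ± SD. Egr1, Egr2, Egr4 and Nab2 have every MA point below every Control point, while in Egr3 the low MA point at 2.78 is replicate 3.

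Nab2, the inducible corepressor, was 4.24, 4.14 and 4.16 in Control replicates 1, 2 and 3 on the log2 scale. In MA replicates 1, 2 and 3 it was 3.72, 3.78 and 3.99. The groups did not overlap, and the gap between them was 0.15. The mean RPKM was 17.1 ± 0.632 (SD, n = 3) in Control and 13.3 ± 1.40 (SD, n = 3) in MA, or 77.5% of Control. Its log2 difference of -0.35 (standard error 0.10, limma adjusted p = 0.290) did not pass. It passed with sample quality weights (limma adjusted p = 0.0307) and without MA replicate 3 (limma adjusted p = 0.0457), and the range over its alternatives was 0.0307 to 0.761. The genes that overlap Nab2 had log2 differences of -0.17 for Stat6 (limma adjusted p = 0.719) and -0.10 for Nemp1 (limma adjusted p = 0.901), both with overlapping groups.

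Nab1, the more evenly made corepressor, had the difference nearest to 0. Its log2 value was 3.005, 2.89 and 2.95 in Control replicates 1, 2 and 3 and 2.99, 2.79 and 2.83 in MA replicates 1, 2 and 3, and the groups overlapped. The log2 difference was -0.08 (standard error 0.10, limma adjusted p = 0.848), with an interval from -0.31 to 0.15. A difference of the size seen for Egr1, Egr2 or Egr4 lies outside that interval.

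Counted together, 1 of the 6 genes passed the adjusted threshold, Egr1, which was lower in MA, where 0.0976% of all tested genes were called in that direction and 0.263% in either direction. At an unadjusted p under 0.05 there were 4 of 6, all lower, beside 5.46% of all tested genes (10.4% in either direction). In those 4 genes, Egr1, Egr2, Egr4 and Nab2, the 3 MA libraries lay below the 3 Control libraries, as they did in 10.2% of all tested genes, while 7.32% had the MA libraries above and 17.5% did not overlap in one direction or the other. All 6 log2 differences were below 0, as were 52.7% of those of all tested genes, with a median of -0.93 beside -0.010 over all tested genes. These counts describe the 6 genes, which were chosen with earlier results of these data known, and Egr2 is among them through its Control level alone. Ranked from the lowest log2 difference, Egr1, Egr2 and Egr4 stood at places 4, 6 and 10 of 13321. The count past the threshold was 0 without Control replicate 2, Control replicate 3 or MA replicate 2, and 4 without MA replicate 3. Over all 13321 tested genes the same fits called 0 without each of the first 3 libraries and 257 without MA replicate 3.

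**Figure D2:**
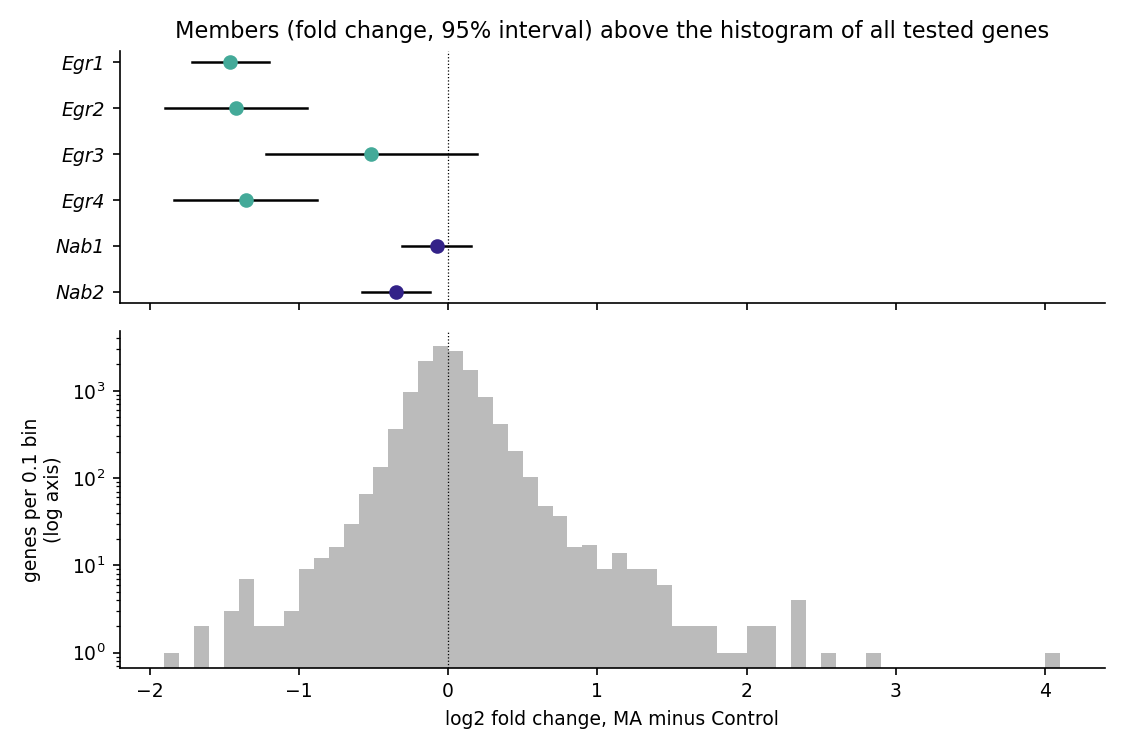
Log2 fold change, MA minus Control (horizontal axis), of the 6 members with their 95% limma intervals in the upper panel, and a histogram of all 13321 tested genes on a log count axis in the lower panel. Egr1, Egr2 and Egr4 lie in the far left tail, Nab2 lies nearer to 0, and the intervals of Egr3 and Nab1 cross 0.

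The makeup of the Egr transcripts differed between the libraries. The 4 Egr transcripts added up to 120.2, 89.6 and 90.8 RPKM in Control replicates 1, 2 and 3. In MA replicates 1, 2 and 3 they added up to 43.4, 40.3 and 37.5 RPKM. The MA mean was 40.3% of the Control mean, and the groups did not overlap. Egr1 made up 53.5% to 58.8% of the sum in the Control libraries and 44.6% to 54.6% in the MA libraries. The share of Egr3 was 13.3% to 18.0% in Control, 31.9% and 32.9% in MA replicates 1 and 2, and 15.7% in MA replicate 3. For Egr2 the share was 2.15% to 3.48% in Control and 0.868% to 1.06% in MA, without overlap.

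**Figure D3:**
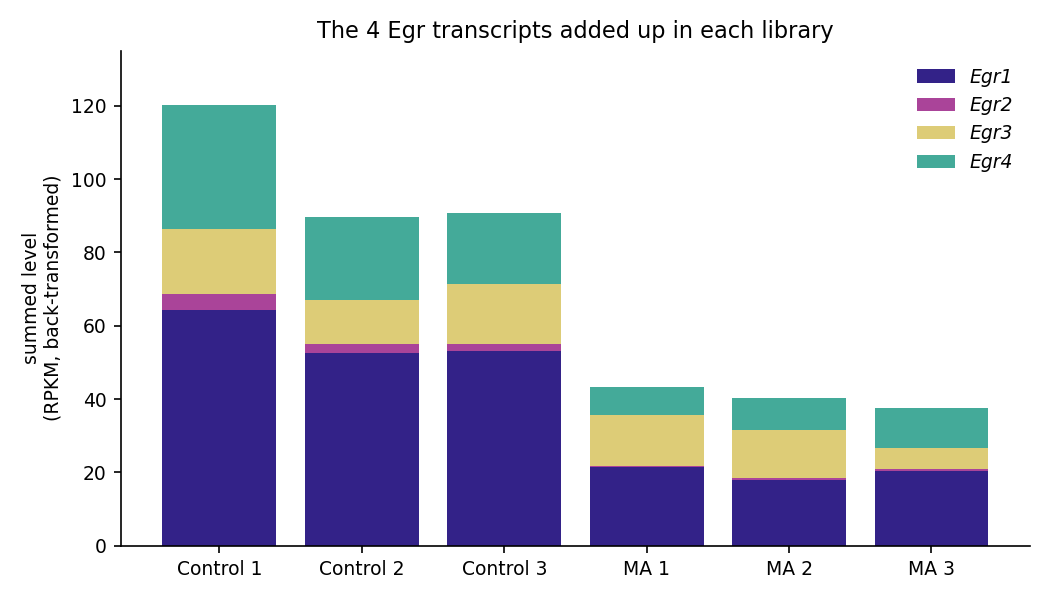
Back-transformed RPKM of the 4 Egr transcripts stacked for each library, Control on the left and MA on the right. The Control stacks reach 89.6 to 120.2 RPKM and the MA stacks 37.5 to 43.4 RPKM, and MA replicate 3 has the thinnest Egr3 layer.

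In the Control libraries the order of levels per kilobase was Egr1, Egr4, Nab2, Egr3, Nab1 and Egr2. Nab2 and Egr3 overlapped in their ranges and the other neighbours did not. In the MA libraries the order was Egr1, Nab2, Egr3, Egr4, Nab1 and Egr2, where Nab2 overlapped with Egr3 and Egr3 with Egr4. Egr4 thus stood above Nab2 in each Control library and below it in each MA library. Egr1 exceeded Nab2 by 1.80, 1.61 and 1.59 on the log2 scale in Control replicates 1, 2 and 3 and by 0.76, 0.47 and 0.44 in MA replicates 1, 2 and 3.

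Whether 2 members differed in their response was compared within libraries for 4 pairs. Nab2 minus Nab1 was 1.23 ± 0.02 (SD, n = 3) in Control and 0.96 ± 0.22 (SD, n = 3) in MA, a change of -0.27 without overlap (exact permutation test, two-sided, p = 0.1, adjusted over the pairs 0.2). Without MA replicate 1 that change was -0.16. Egr1 minus Nab2 changed by -1.11, also without overlap (exact permutation test, two-sided, p = 0.1, adjusted 0.2). For Egr1 minus Egr3 the change of -0.95 and for Egr4 minus Egr3 the change of -0.84 came with overlap between the groups (p = 0.2 each and 0.2 adjusted, by the same exact test). In a design of 3 against 3 the smallest p is 0.1, so none of the 4 could reach 0.05. The mean of the 4 Egr genes minus Nab1 was 1.44, 1.05 and 1.00 in the Control libraries and -0.00023, 0.17 and -0.021 in the MA libraries, a change of -1.11 described here without a test.

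**Figure D4:**
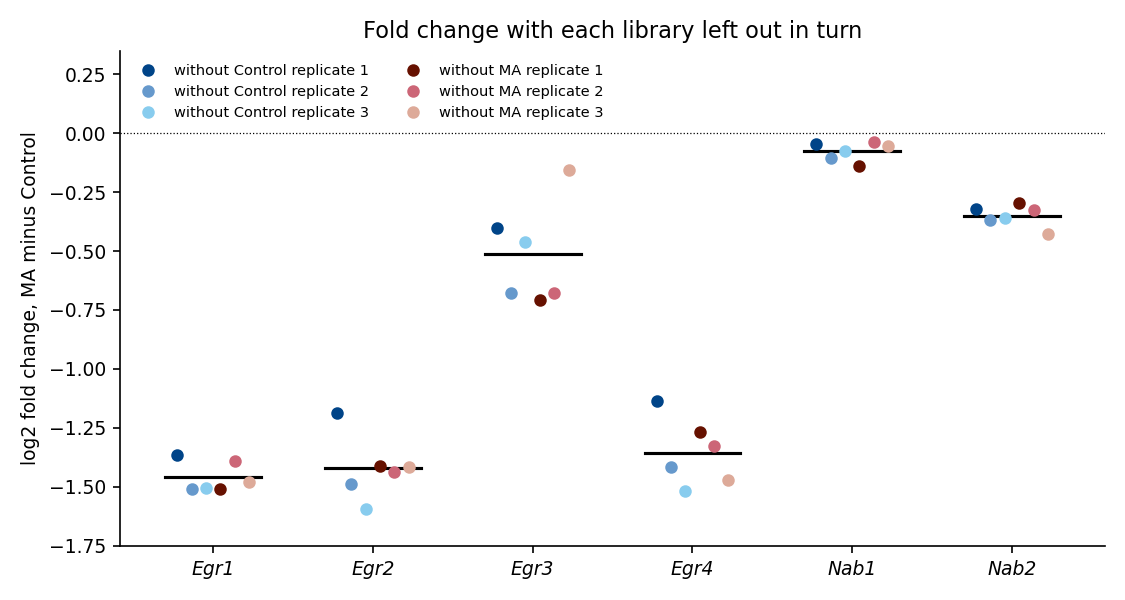
Log2 fold change, MA minus Control (vertical axis), of each member with all 6 libraries (black line) and with 1 library left out (points, coloured by the library left out). Every point lies below 0, and the widest spread is that of Egr3, from -0.71 to -0.15, where the upper value is without MA replicate 3.

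The values of Egr1, Egr2 and Egr4 ran together over the 6 libraries, with Pearson's r of 0.971 for Egr1 with Egr2, 0.985 for Egr2 with Egr4 and 0.960 for Egr1 with Egr4. These describe 6 points in 2 groups, so the difference between the groups carries most of them. For Egr3 the r with Egr1 was 0.549, and for Nab1 it was 0.572. Nab2 had an r of 0.910 with Egr1 and 0.222 with Egr3. In MA replicate 3 Egr4 and Nab2 had their highest MA values and Egr3 its lowest.

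The 10 tested genes most like the mean of the 4 Egr genes had a Pearson's r of 0.990 to 0.995 over the 6 libraries. First was Nr4a1, a nuclear receptor induced by activity, with an r of 0.995. The others, in order, were Pknox1, Ero1lb, Mal2, Abce1, Dnajb5, Gadd45b, Manf, Zfp706 and Papd7. Ero1lb and Manf act in the endoplasmic reticulum, Dnajb5 is a co-chaperone and Gadd45b is a stress-inducible gene. The Egr mean itself differed by -1.19 between the groups, so the choice of these genes fixed their direction, and their differences are a description. They ran from -1.45 for Nr4a1, -0.90 for Gadd45b and -0.85 for Manf to -0.15 for Abce1. With the group means taken out, r with the Egr mean was 0.866 for Papd7 to 0.970 for Zfp706. Choosing these genes for a high r over the same 6 libraries also favours high values here, so these too are a description. An r over 0.9 with the Egr mean was reached by 381 tested genes, members included. Among the members, Egr2, Egr1, Egr4, Nab2, Egr3 and Nab1 had an r of 0.991, 0.979, 0.961, 0.863, 0.656 and 0.583 with that mean, which contains the Egr genes themselves.

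Upstream of the Egr genes, 29 factors and kinases that act on Egr promoters were listed, and all 29 were tested. None passed the adjusted threshold (limma), and 3 of 29 had an unadjusted p under 0.05, a share near the 10.4% of all tested genes. All 3 had lower values in MA, beside 5.46% of all tested genes. Creb1, the CREB factor itself, was 2.78, 2.69 and 2.99 in the Control libraries and 2.58, 2.29 and 2.26 in the MA libraries, a log2 difference of -0.44 (limma adjusted p = 0.323). Srf was 4.11, 4.16 and 4.21 in Control and 3.91, 3.96 and 3.79 in MA, a difference of -0.27 (limma adjusted p = 0.350). Crem, which encodes a relative of CREB with repressor forms, had a difference of -0.34 (limma adjusted p = 0.350). The groups did not overlap in these 3, beside 10.2% of all tested genes with MA below Control. In 1 other gene of the 29 every MA library was above every Control library, beside 7.32% of all tested genes. The median over the 29 was 0.0047, with 14 below 0, beside -0.010 over all tested genes.

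The NuRD list, the chromatin complex that Nab proteins bring to Egr sites, had 14 genes, all tested. None passed the adjusted threshold (limma), 1 of 14 had an unadjusted p under 0.05, beside 10.4% of all tested genes, and the median log2 difference was -0.018. The 3 genes with the smallest p were Chd3, an ATPase of the complex, at 0.24, Gatad2b at -0.22 and the deacetylase gene Hdac2 at -0.17, with limma adjusted p-values of 0.329, 0.504 and 0.529. The groups did not overlap in these 3 of the 14, near the share of 17.5% over all tested genes.

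Of 42 genes described as Egr targets, 38 were tested, and 2 passed the adjusted threshold in opposite directions, beside 0.0976% of all tested genes called lower and 0.165% called higher. Arc, a synaptic gene described as an Egr target, fell in the libraries labelled MA, from 6.67, 6.23 and 6.22 in Control replicates 1, 2 and 3 to 4.77, 4.40 and 4.54 in MA replicates 1, 2 and 3 (log2 fold change -1.80, limma adjusted p = 0.0181). Ace, which encodes angiotensin-converting enzyme and is also expressed in the choroid plexus, rose from 1.33, 1.76 and 2.11 to 3.15, 3.41 and 3.40 (log2 fold change 1.59, limma adjusted p = 0.0332). At an unadjusted p under 0.05 there were 4 lower and 2 higher of 38, beside 5.46% lower and 10.4% in either direction over all tested genes. The median over the 38 was 0.048, with 15 below 0. The count of 2 was 4 without MA replicate 3, 1 without Control replicate 1 or MA replicate 1, and 0 without any one of Control replicate 2, Control replicate 3 and MA replicate 2. Over all tested genes the count was 257 without MA replicate 3, 3 without Control replicate 1 and 15 without MA replicate 1. It was 0 in the fits where the target count was 0.

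**Figure D5:**
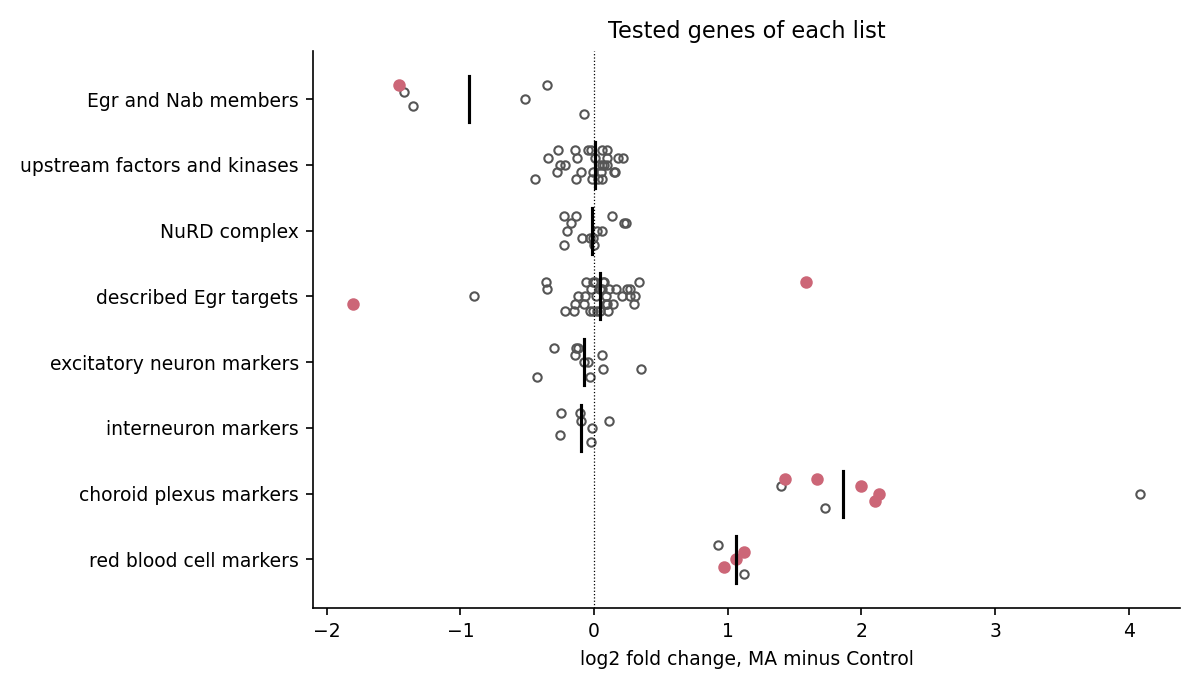
Log2 fold change, MA minus Control (horizontal axis), of each tested gene in 8 lists, filled where the limma adjusted p is under 0.05, with a black line at the list's median. The upstream, NuRD and target lists centre near 0, with Arc at -1.80 and Ace at 1.59 as the filled targets, while choroid plexus and red blood cell markers all lie above 0.

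Markers of other cells moved with the groups. All 8 choroid plexus markers were higher in each MA library than in each Control library, beside 7.32% of all tested genes. Of the 8, 5 passed the adjusted threshold (limma), beside 0.165% of all tested genes called higher. The summed RPKM of the 8 was 99.4, 214 and 476 in Control replicates 1, 2 and 3. In MA replicates 1, 2 and 3 it was 1925, 2512 and 5299, which is 0.394% to 1.09% of all RPKM in the MA libraries. All 5 red blood cell markers were also higher in each MA library, beside the same 7.32% of all tested genes. Their sums were 1599 to 2024 in Control and 3319 to 4378 in MA. The 11 genes listed as excitatory neuron markers, all tested, summed to 4293 to 4510 in Control and 3943 to 4600 in MA. The 7 interneuron markers summed to 1855 to 2127 and 1690 to 1884. The excitatory list includes general neuron markers, so these sums do not separate the neuron types. No marker in these 4 lists was at 0 in any library, and none of the neuron markers passed the adjusted threshold. The 7 thalamus markers summed to 19.7 to 27.3 RPKM in Control, to 56.3 and 77.6 in MA replicates 1 and 2, and to 19.8 in MA replicate 3. Each of the 7 was higher in MA replicates 1 and 2 than in every Control library. That split was chosen after the values were seen, and its share over all tested genes was not counted. MA replicates 1 and 2 also had the larger Egr3 share, with MA replicate 3 alone on the other side, and a link was not tested. None of the 6 tested thalamus markers passed the adjusted threshold (limma), and 1 had an unadjusted p under 0.05, beside 10.4% of all tested genes. This was Tnnt1 at 1.48 on the log2 scale, named here after its values were seen. The part of the thalamus signal in the Egr and Nab results was not tested. The part of the choroid plexus and blood signal in the Egr and Nab results was not tested, and with every MA library above every Control library it cannot be told apart from treatment. In whole tissue, fewer cells of a type and less RNA per cell cannot be told apart either.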

How the data were processed

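RNA-seq of the hippocampus of 3 Control and 3 MA mice gave 1 library per mouse. The study's methods name Hisat2, featureCounts and FPKM scaled by gene length, without a genome build, whereas the submitters' processing notes name Bowtie 0.12.2 with mm8 and mm9. The authors deposited 1 table named as RPKM. Its deposited values are on a log scale, taken as log2. With that reading, 2 to the power of the value, minus 1, sums to between 487712 and 488572 per library. Libraries scaled to a common distribution would have near-equal sums under any base or offset, so these sums settle neither. The base and the offset of 1 are inferred, and every RPKM level, share and log2 difference given here rests on them. The log step and the scaling between libraries are not described. The depth is unknown, since the table gives no read totals.

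Tested genes reached a back-transformed RPKM of 0.5 or more in 3 or more libraries, which kept 13321 of 16060 rows. All of them were fitted with limma 3.58.1 (R 4.3.3) with a trend on the mean level and no covariate, with Benjamini-Hochberg adjustment and a threshold of 0.05. In 10 simulated tables of 13321 genes where 200 genes were shifted by 1 log2 unit, the fit found a median of 74.5% of these, and 3.88% of its calls were false. The simulated noise was normal, independent between genes and equal in spread over the 6 libraries. MA replicate 3 stood apart in the real libraries, so these rates need not hold for the real fit. Differences between 2 transcripts were compared by exact permutation, two-sided, with 0.1 as the smallest possible p. The members, the lists of upstream, NuRD, target, lipid and GC-box genes and the cell type markers were chosen with earlier results of these data known. Besides the members, the genes named were those of each list past the threshold or, where a list had none, the 3 with the smallest p. Also named were the 10 genes most correlated with the mean Egr level and genes that overlap a member. Of the cell type markers, tested ones whose groups did not overlap were named, except in the choroid plexus and blood lists. Tnnt1 of the thalamus was named outside this rule. Alternatives were pseudocounts of 0.1 and 0.01, no filter, a minimum mean of 5, median centring, quantile normalization, no variance trend, sample quality weights, a replicate block and leaving out each library. Coordinates are from GENCODE M21 (GRCm38) and promoter windows from RefSeq (GRCm38.p6), for location only. The qPCR, protein and behavioral data were not analysed here.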

Additional observations from a re-analysis of the deposited data

How the results depend on the processing

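All 6 members were below 0 in every alternative that gave them a value. The count of members past the adjusted threshold (1) was 2 with a pseudocount of 0.1, 2 with 0.01 and 4 with sample quality weights, and 0 to 4 with each library left out. Over all tested genes the count (35, 13 lower and 22 higher) was 3 with no filter, 20 with a minimum mean of 5, 586 with sample quality weights, and 0 to 257 with each library left out. The target count (2) was 1 with either pseudocount or no filter and 4 with sample quality weights, which also called 1 upstream and 2 NuRD genes (0 each). With each library left out it was 0 to 4 for the targets and 0 for the upstream and NuRD lists. The cause of these changes was not tested, beyond that a fit without a library has fewer samples. Under the replicate block the counts were 15 over all tested genes and 1, 2, 0 and 0 for members, targets, upstream and NuRD genes, and Egr1 kept its call (limma adjusted p = 0.0388). Same-numbered libraries share a number in their titles, and their deviations correlated at -0.197, -0.242 and -0.337 across genes. With 3 libraries per group these values cannot settle whether the libraries were paired in any way. The change of Nab2 minus Nab1 lay between -0.37 and -0.16 with each library left out, and that of the Egr mean minus Nab1 between -1.19 and -0.97. The depth of the libraries is unknown.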

Other observations

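Egr2 is known in Schwann cells as a driver of myelin and lipid genes, and 11 such genes were listed, of which 9 were tested. Srebf1, a master factor of fatty acid synthesis, was 3.27, 3.22 and 3.29 in Control replicates 1, 2 and 3 and 3.86, 3.89 and 3.96 in MA replicates 1, 2 and 3, and rose by 0.64 on the log2 scale (limma adjusted p = 0.0394). It was the only gene of the list past the threshold, beside 0.165% of all tested genes called higher. The median over the 9 was -0.053.

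Of 11 zinc finger factors that bind GC-rich sites like those of Egr proteins, 10 were found and tested, and Wt1 is not analysed here. None passed the adjusted threshold (limma), and 1 of 10 had an unadjusted p under 0.05, near the 10.4% of all tested genes. The 3 with the smallest p were Klf16 at -0.38, Sp3 at -0.29 and Maz at 0.17 on the log2 scale, with limma adjusted p-values of 0.296, 0.519 and 0.572.

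In the other cell type lists no marker passed the adjusted threshold (limma). Among excitatory neuron markers, Neurod6 at -0.43 and Wfs1 at -0.30 were lower and Grik4 at 0.35 was higher in each MA library than in each Control library, with limma adjusted p-values of 0.290, 0.413 and 0.354. The same held for Cldn5 of the endothelium at 0.30, for Igf2 and Dcn of the meninges at 1.26 and 1.30, and, on the lower side, for Aqp4 of astrocytes at -0.36, Tmem119 of microglia at -0.13 and Pde10a of the striatum at -0.21. Over all tested genes, 10.2% had every MA library below every Control library, 7.32% had every one above and 17.5% did not overlap in either direction. The 6 oligodendrocyte markers each overlapped between the groups. The summed RPKM of the meningeal markers was 37.9 to 45.9 in the Control libraries and 80.4 to 105.2 in the MA libraries.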
